A study of Mus musculus with 3 samples.

Results

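mmu-miR-26a-5p, mmu-miR-26b-5p, mmu-miR-103-3p and mmu-miR-107-3p (written without the species prefix from here on) are the guide strands of a pair of small microRNA (miRNA) families, and their levels were described in exosomes released by mouse mesenchymal stem cells (MSCs). The 4 miRNAs were taken by name from the 1881 mouse miRNAs on the array, with earlier results of these data known. They were read by 8 of the 4415 miRNA probes, 2 probes each. All 4 were detected on all 3 arrays.

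The study hybridized RNA of exosomes, the small vesicles that cells shed into their medium, to 3 one-colour Agilent mouse miRNA arrays, 1 array for each group. H+G-Exo came from MSCs kept for 24 h in hypoxia with GW4869, an inhibitor of neutral sphingomyelinase that blocks a route of exosome formation. H-Exo came from MSCs kept for 24 h in hypoxia alone, and N-Exo from MSCs kept for 24 h in normoxia. In every group the MSCs had been grown from the bone marrow of male wild-type C57BL/6 mice aged 4 to 6 weeks, were used at passages 3 to 6, and were fed a low-glucose medium with 10% fetal bovine serum. Per the labels' protocols, the medium of 10 dishes was cleared of cells, debris and larger vesicles, passed through a 0.2 µm filter and spun at 100000 x g for 70 min to pellet the exosomes. The oxygen level, the dose of GW4869 and whether the vesicles of the serum itself had been removed are not given in the sources used here. The design text speaks of several samples for each kind of exosome, and whether the RNA on an array was pooled is not stated. With 1 array in each group there was no replicate of any condition, so no difference below has a test or a p-value. Values after ± are SDs among the repeated spots of a probe on its array, which hold technical error only.

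A miRNA guides the silencing complex to messenger RNAs that pair with its seed, the short stretch near its 5′ end, so miRNAs with the same seed are counted as a family. The miR-26 family is known for restraining proliferation and the histone methyltransferase Ezh2, and it lies in introns of the Ctdsp genes, whose small phosphatases act in differentiation. miR-103 and miR-107 lie in the Pank genes of coenzyme A synthesis, are known in mice for lowering insulin sensitivity through Caveolin-1, and target Dicer, the enzyme that cuts miRNAs from their hairpins. Both families were named in early lists of miRNAs induced by hypoxia in human cancer cell lines, and miR-210 is the best known miRNA of that kind.

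The mature sequences are shown because the members of a family differ so little that the separation of their signals rests on 1 or 2 bases. They are given 5′ to 3′ from RefSeq (GRCm38.p6), with the seed, bases 2 to 8, in capitals.
miR-26a-5p: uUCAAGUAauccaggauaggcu
miR-26b-5p: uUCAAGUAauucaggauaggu
miR-103-3p: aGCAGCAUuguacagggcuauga
miR-107-3p: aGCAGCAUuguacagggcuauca
Counted from 1 at the 5′ end, miR-26b-5p differs from miR-26a-5p by C11U and C21U and is 1 base shorter, with 19 of 21 aligned bases identical. miR-107-3p differs from miR-103-3p only by G22C, with 22 of 23 bases identical. In the RefSeq table each seed was shared by the 2 members of its family and by no other mature mouse miRNA. miR-26a-5p comes from hairpins in Ctdspl on chromosome 9 and Ctdsp2 on chromosome 10, and miR-26b-5p from a hairpin in Ctdsp1 on chromosome 1. miR-103-3p comes from hairpins in Pank3 on chromosome 11 and Pank2 on chromosome 2, and miR-107-3p from a hairpin in Pank1 on chromosome 19. miR-26a-5p and miR-103-3p each have 2 hairpins that yield the same mature RNA, so their signal cannot be assigned to 1 locus.

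Each member was read by a brighter and a dimmer probe, which differ by 1 base in length. The brighter probes are shown 5′ to 3′ as the array files give them, with capitals at the bases that lie opposite the positions where the family members differ.
miR-26a-5p probe: aGcctatcctgGatta
miR-26b-5p probe: AcctatcctgAattacttga
miR-103-3p probe: tCatagccctgtacaatg
miR-107-3p probe: tGatagccctgtacaatgct
These probes pair with bases 7 to 22 of miR-26a-5p, 2 to 21 of miR-26b-5p, 6 to 23 of miR-103-3p and 4 to 23 of miR-107-3p. The base that separates miR-103-3p from miR-107-3p is next to the end of each probe. How much of the RNA of 1 family member binds the probe of the other was not tested, so the separate values of miR-26a-5p and miR-26b-5p, and of miR-103-3p and miR-107-3p, are uncertain to that extent. The array files place the brighter probes, on the mm9 build, at chr9:118940935-118940950 and chr10:126432605-126432620 for miR-26a-5p and at chr1:74440900-74440918 for miR-26b-5p. The brighter probe of miR-103-3p lies at chr2:131113844-131113861 and chr11:35595954-35595971, and that of miR-107-3p at chr19:34895232-34895250. Some of these spans are 1 base shorter than the probe, so their ends are certain to within 1 base only.

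Each array had 56430 miRNA spots, and 675 miRNAs were detected in H+G-Exo, 586 in H-Exo and 685 in N-Exo. A miRNA counted as detected where more than 50% of the spots of its brightest probe were well above background by the scanner software's flag. A scaled signal is the mean processed signal of a probe divided by the 75th percentile of its array, taken over probes detected everywhere. That percentile was 468.9 in H+G-Exo, 235.0 in H-Exo and 417.3 in N-Exo. Of 15 miRNAs typical of mesenchymal stromal cells, 15 were detected in H+G-Exo, 14 in H-Exo and 15 in N-Exo. Their detection does not by itself identify the cell source. The endothelial markers miR-126a-3p and miR-126a-5p stayed at background on every array, and of 8 blood cell markers 4 were detected in H+G-Exo, 3 in H-Exo and 3 in N-Exo.

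The question of the first comparison is which exosomal miRNAs differ after hypoxia of the parent cells. Both miR-26 members, described in many tissues as brakes on growth, lay lower in H-Exo, with N-Exo as the baseline. The scaled signal of miR-26a-5p was 0.311 ± 0.0329 in H+G-Exo (15 spots), 0.972 ± 0.0840 in H-Exo (15 spots) and 3.82 ± 0.121 in N-Exo (14 spots). Its spots on the 3 arrays formed separate groups, and H-Exo lay between the other arrays. Such separation rests on technical repeats only, and its share among all miRNAs was not counted. The log2 difference of H-Exo against N-Exo was -1.97 (SE 0.034 over spots), a 3.93-fold lower scaled signal. The scaled signal of miR-26b-5p was 0.0807 ± 0.0117 in H+G-Exo (15 spots), 0.185 ± 0.0217 in H-Exo (15 spots) and 0.523 ± 0.0167 in N-Exo (13 spots). Again no spot of 1 array overlapped those of another after scaling, although the H+G-Exo mean was close to 0.0653. That value is the floor to which lower signals were raised before log2 was taken. Unscaled, the spots of miR-26b-5p ran from 25.2 to 44.8 in H+G-Exo and from 33.5 to 54.8 in H-Exo, so these overlapped. Its log2 difference of H-Exo against N-Exo was -1.50 (SE 0.045), a 2.82-fold lower scaled signal.

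Both members of the miR-103 and miR-107 family, the regulators of insulin sensitivity, also lay below their N-Exo signal in H-Exo, by less than miR-26a-5p. The scaled signal of miR-103-3p was 0.555 ± 0.0581 in H+G-Exo (15 spots), 2.01 ± 0.0783 in H-Exo (14 spots) and 4.13 ± 0.254 in N-Exo (14 spots). That of miR-107-3p was 0.324 ± 0.0134 in H+G-Exo (13 spots), 0.935 ± 0.0414 in H-Exo (14 spots) and 1.99 ± 0.101 in N-Exo (14 spots). For both, the spots of the 3 arrays did not overlap, with N-Exo the highest and H+G-Exo the lowest. Separate spots are not particular to the members. Those of miR-210-3p did not overlap either, even at a 1.22-fold difference of H+G-Exo to N-Exo, and the share among all miRNAs was not counted. The log2 difference of H-Exo against N-Exo was -1.04 (SE 0.028) for miR-103-3p, 2.06-fold lower, and -1.09 (SE 0.026) for miR-107-3p, 2.13-fold lower. Both therefore lay just past the 2-fold limit.

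**Figure D1:**
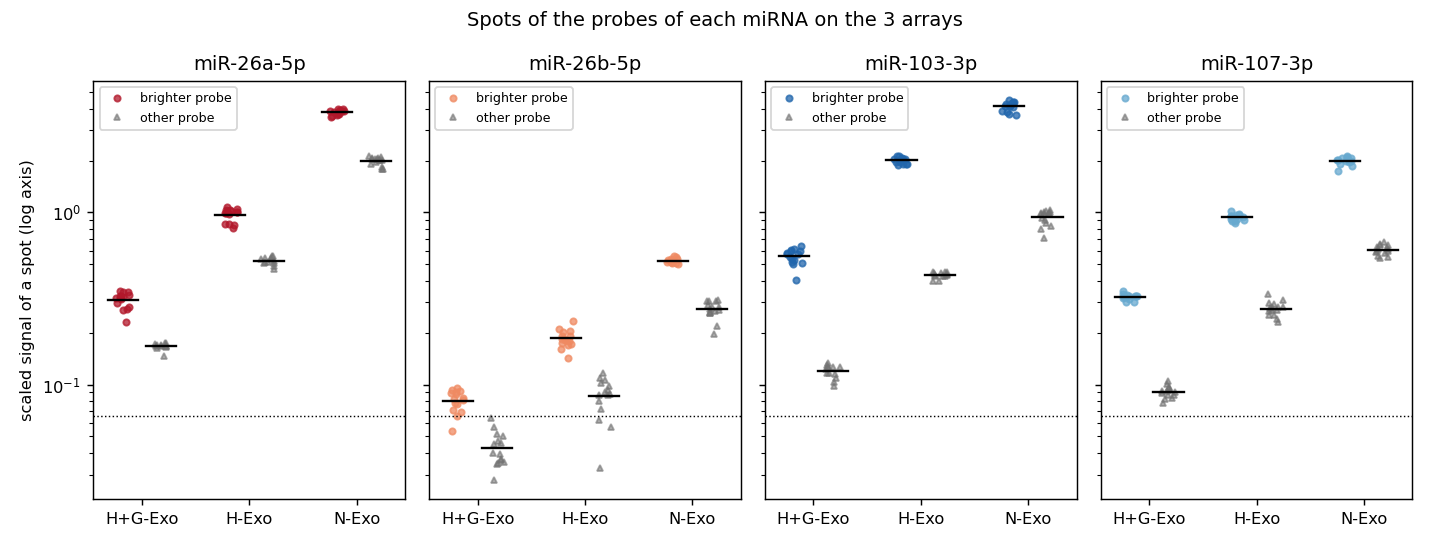
Scaled signal of every spot (log axis) of both probes of each miRNA in H+G-Exo, H-Exo and N-Exo; coloured circles are spots of the brighter probe, grey triangles those of the other probe, bars their means, and the dotted line the floor of 0.0653. After scaling, the spots of the 3 arrays do not overlap for the brighter probes, as for miR-26a-5p with means of 0.311, 0.972 and 3.82. The share of all miRNAs with such separate spots was not counted.

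To be called lower or higher, a miRNA had to be detected on both arrays, to differ by a factor of 2 or more, and to exceed 2 standard errors over spots. In H-Exo against N-Exo 4 of 4 members were called lower, against 10.7% of the 582 miRNAs detected on both arrays (62 miRNAs), while 4.3% (25) were called higher. The median log2 difference of the members was -1.29, against 0.34 over the 582 miRNAs. Relative to that median, the members' log2 differences were -2.32 for miR-26a-5p, -1.84 for miR-26b-5p, -1.39 for miR-103-3p and -1.44 for miR-107-3p. Counted from the lowest of the 582 differences, miR-26a-5p stood at place 8, miR-26b-5p at 21, miR-107-3p at 55 and miR-103-3p at 61. With RNA taken from a whole preparation, fewer vesicles that carry a miRNA and less of it in each vesicle cannot be told apart.

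The next comparison asks what GW4869 changed under hypoxia. All 4 members lay lower still in H+G-Exo, below their H-Exo signal, under the scaling used here, but the call depends on that scaling, as given further on. The log2 difference was largest in size for miR-103-3p, at -1.86 (SE 0.042), a 3.62-fold lower scaled signal. It was -1.65 (SE 0.051) for miR-26a-5p, 3.13-fold lower, and -1.53 (SE 0.024) for miR-107-3p, 2.88-fold lower. miR-26b-5p had the smallest difference of the 4, -1.20 (SE 0.069) or 2.30-fold lower. Here too 4 of 4 members were called lower, against 26.1% of the 566 miRNAs detected on both arrays (148 miRNAs), while 6.18% (35) were called higher. The median over the 566 was -0.42, and relative to it the members stood at -1.44 for miR-103-3p, -1.23 for miR-26a-5p, -1.11 for miR-107-3p and -0.78 for miR-26b-5p. By place from the lowest, miR-103-3p was 15, miR-26a-5p 37, miR-107-3p 57 and miR-26b-5p 116 of 566. The 2 comparisons share the H-Exo array, so a member that happened to read low there would be lower in the first and higher in the second.

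The last comparison sets hypoxia with GW4869 against normoxia, and here the members lay farthest apart between arrays. The log2 difference of H+G-Exo against N-Exo was -3.62 (SE 0.041) for miR-26a-5p, a 12.3-fold lower scaled signal. It was -2.90 (SE 0.046) for miR-103-3p, 7.45-fold lower, -2.70 (SE 0.055) for miR-26b-5p, 6.49-fold lower, and -2.62 (SE 0.026) for miR-107-3p, 6.14-fold lower. The value of miR-26b-5p depends on the processing, and with normexp background correction it was -1.09. That setting adds an offset of 50 to every spot, and its floor was 0.279. The unscaled main signal of miR-26b-5p in H+G-Exo was only 37.8, so the offset alone shrinks its log2 difference. The parts of offset, floor and background in the change were not tested. All members, 4 of 4, were called lower, against 26.1% of the 606 miRNAs detected on both arrays (158 miRNAs), while 18.3% (111) were called higher. The median over all 606 was -0.05, and 3 of them had a lower difference than miR-26a-5p, which stood at place 4. miR-103-3p stood at place 14, miR-26b-5p at 21 and miR-107-3p at 34. The order with N-Exo highest, H-Exo between and H+G-Exo lowest held for 4 of 4 members, and for 130 of the 562 miRNAs detected on all 3 arrays, or 23.1%.

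**Figure D2:**
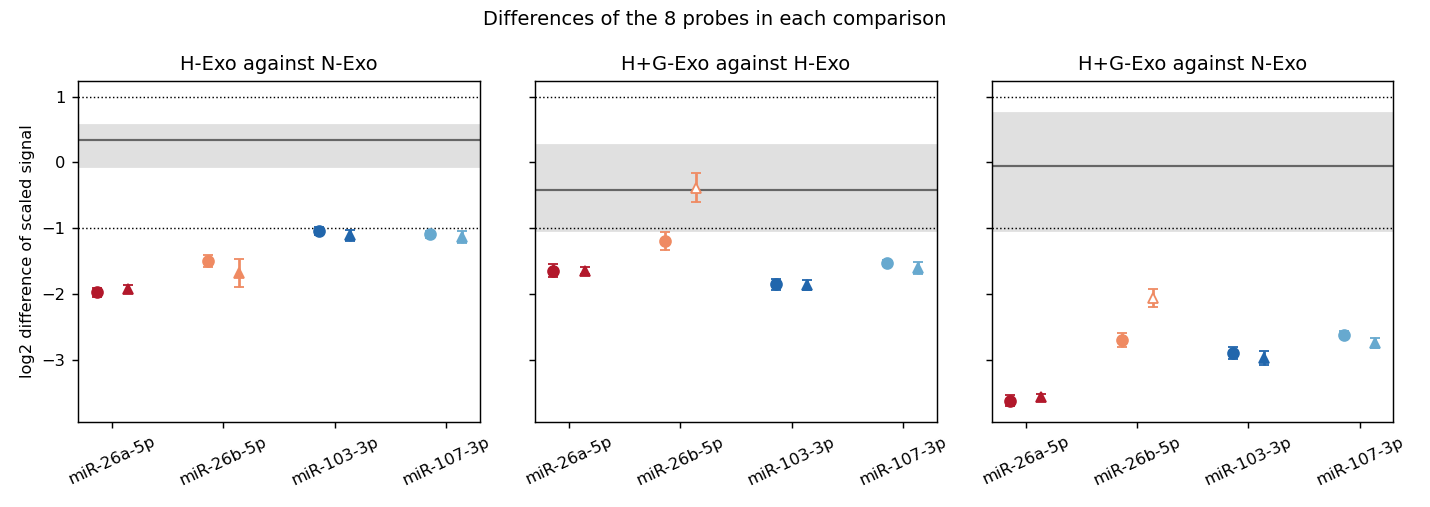
log2 differences of scaled signal of the 8 probes in the 3 comparisons (circles, brighter probe; triangles, other probe; bars, 2 SE over spots; open symbols, not detected on 1 array). The grey line and band are the median and quartiles of all miRNAs detected on both arrays, and the dotted lines mark 2-fold; the brighter probe of miR-26a-5p stands at -1.97, -1.65 and -3.62 from left to right.

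Under the same scaling the dimmer probe of each member also read lower in every comparison. For miR-26a-5p it read 0.167 in H+G-Exo, 0.524 in H-Exo and 1.99 in N-Exo, with a log2 difference of H-Exo against N-Exo of -1.93. For miR-103-3p it read 0.119, 0.433 and 0.935 on the same arrays, with a difference of -1.11, and for miR-107-3p 0.0909, 0.277 and 0.608, with a difference of -1.14. The brighter probes of these 3 miRNAs gave -1.97, -1.04 and -1.09, so both probes gave the same direction and a like size. The dimmer probe of miR-26b-5p read 0.0431 in H+G-Exo, 0.0854 in H-Exo and 0.273 in N-Exo. In H+G-Exo only 7 of its 15 spots were well above background, so the miRNA was not detected there by this probe. With that signal raised to the floor of 0.0653, its log2 difference was -0.39 for H+G-Exo against H-Exo, where the spots of the arrays overlapped, and -2.06 for H+G-Exo against N-Exo, where they did not.

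In the main setting miR-26a-5p and miR-26b-5p differed from each other in the size of their change, while miR-103-3p and miR-107-3p lay close together in H-Exo against N-Exo. A difference between 2 miRNAs on the same pair of arrays does not depend on how the arrays are scaled, unless the scaling changes with the signal. The log2 difference of miR-26a-5p minus that of miR-26b-5p was -0.48 (SE 0.057) in H-Exo against N-Exo, and -0.44 (SE 0.086) with H+G-Exo set against H-Exo. In H-Exo against N-Exo the dimmer probes put this gap at -0.25 (SE 0.109). Over 17 settings of the processing it ran between -1.11, with normexp, and -0.21, with quantile normalization. In H+G-Exo against H-Exo it ran between -0.88 and -0.44 over 16 settings, and miR-26b-5p was close to the floor in H+G-Exo. miR-103-3p and miR-107-3p were closer: their log2 differences in H-Exo against N-Exo were 0.05 apart (SE 0.038), which is 1.31 standard errors, and those of their dimmer probes 0.027 apart (SE 0.059). Over the 17 settings this gap ran between -0.0845 and 0.23, so the ranges of the 2 families' gaps overlap in size. In H+G-Exo against H-Exo miR-103-3p and miR-107-3p were -0.33 apart (SE 0.048), with miR-103-3p the lower, and their dimmer probes were -0.26 apart (SE 0.061). These standard errors hold spots of 1 array pair, so they do not show how such a gap would vary between preparations.

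Between miR-26a-5p and miR-103-3p the order changed with the comparison. The log2 difference of miR-26a-5p minus that of miR-103-3p was -0.93 (SE 0.044) in H-Exo against N-Exo. Over the 17 settings of the processing this gap ran between -0.98 and -0.75. Settings that change only the factor of each array or the detection rule give the same gap by construction, so they lend it no support. In H+G-Exo against H-Exo the gap had the other sign, 0.21 (SE 0.066), and it ran between 0.16 and 0.27 over those settings. Of this pair, miR-26a-5p thus had the larger difference in size for H-Exo against N-Exo, and miR-103-3p for H+G-Exo against H-Exo. miR-26a-5p minus miR-107-3p kept its sign, at -0.88 (SE 0.043) and -0.12 (SE 0.056) in these comparisons, and also in the settings that could move it. With the dimmer probes it was -0.044 (SE 0.055) in H+G-Exo against H-Exo, less than its standard error, so the sign there is uncertain. The gaps in both comparisons share the H-Exo array, and a signal of either miRNA that is off on that array moves them in opposite directions. In H+G-Exo against N-Exo, which leaves that array out, the gap of miR-26a-5p to miR-103-3p was -0.72 (SE 0.062).

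The scaling decides what can be said of H+G-Exo against H-Exo. Unscaled, the brighter probe of miR-26a-5p read 145.7 in H+G-Exo, 228.5 in H-Exo and 1595 in N-Exo, and that of miR-103-3p 260.3, 472.0 and 1726. miR-107-3p read 152.1 in H+G-Exo, 219.6 in H-Exo and 831.5 in N-Exo, and miR-26b-5p 37.8, 43.6 and 218.5. The unscaled signals of the brighter probes thus kept the order of the arrays for all 4 members, while the gap of H+G-Exo to H-Exo was narrower than after scaling. The dimmer probe of miR-26b-5p did not keep it: unscaled, it read 20.2 in H+G-Exo, 20.1 in H-Exo and 114.0 in N-Exo. With H+G-Exo set against H-Exo, 4 of 4 members were called under the 75th percentile of detected probes, 3 under each of 3 other array-wide scalings, 1 when scaled to the labelling spike-ins, and 0 when scaled to the hybridization spike-ins or not scaled. Over these 7 scalings the median of all measured miRNAs ranged between -0.42 and 0.57, and 7 miRNAs were called lower and 185 higher with no scaling. A scaling by 1 factor per array cannot move a member relative to that median, apart from effects of the floor. Quantile normalization can, and with it miR-103-3p stood at -1.60 and miR-26b-5p at -0.76 relative to the median. In the main setting these values were -1.44 and -0.78.

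In the other comparisons the members' calls were steadier. In H-Exo against N-Exo the log2 difference of miR-26a-5p ranged between -2.81 and -1.86 over the 7 scalings and was called in 7 of 7. miR-103-3p, next to the limit, ranged between -1.88 and -0.94 and was called in 6 of 7. For H+G-Exo against N-Exo all 4 members were called under all 7 scalings, with log2 differences between -3.62 and -3.30 for miR-26a-5p and between -2.62 and -2.29 for miR-107-3p. By its brighter probe each member was lower in each of the 3 comparisons under all 7 scalings. The split of all calls moved more than the members did: with no scaling 134 miRNAs were called lower and 1 higher in H-Exo against N-Exo, and scaling to the labelling spike-ins left 119 called lower and 170 higher in H+G-Exo against N-Exo.

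**Figure D3:**
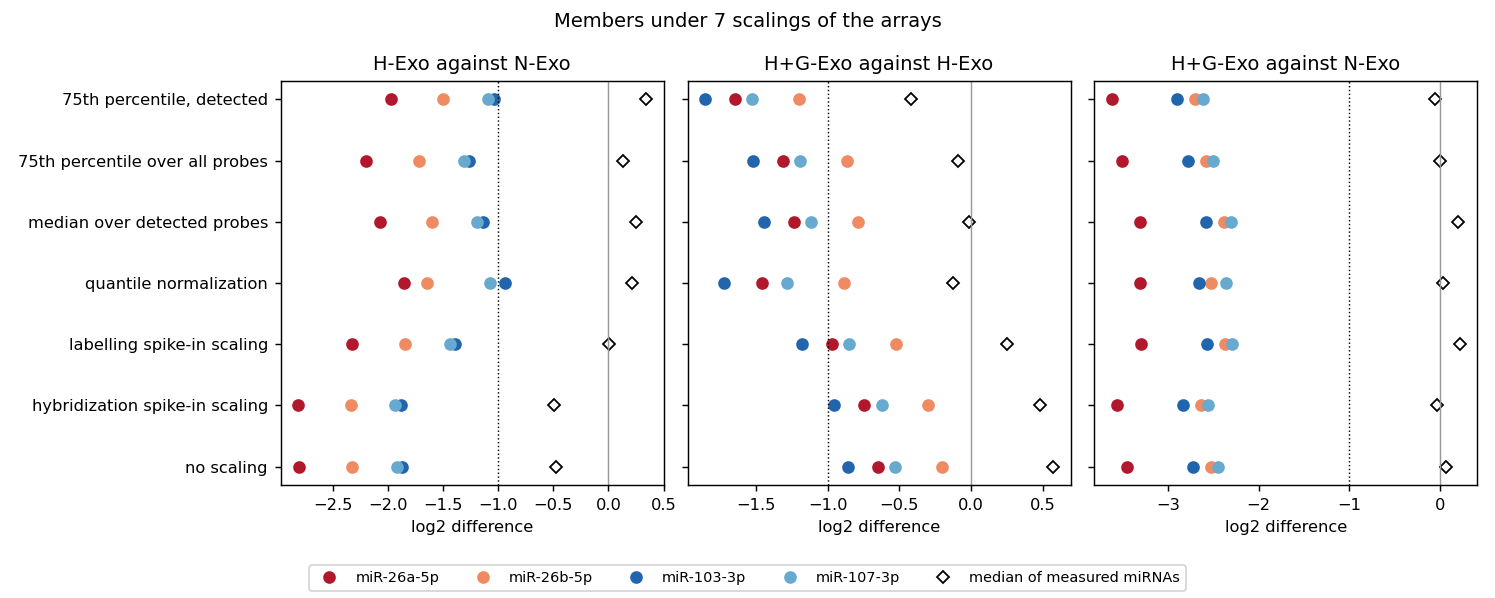
log2 difference of each member (coloured points) and median over all measured miRNAs (open diamonds) under 7 ways of scaling the arrays, with the dotted line at 2-fold lower. Between H+G-Exo and H-Exo the points cross the line, with 4 of 4 members called under the 75th percentile of detected probes and 0 with no scaling, while the members stay left of the median in every row.

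The members' probes are alike in base composition, and this moves with the result. The GC content of the 8 probes lies between 35.0% and 47.4%. Over all measured miRNAs whose brightest probe has a GC content under 50%, the median log2 difference was -0.73 (114 miRNAs), -1.07 (105) and -1.71 (110) for H-Exo against N-Exo, H+G-Exo against H-Exo, and H+G-Exo against N-Exo. Over those with 50% or more it was 0.39 (468 miRNAs), -0.26 (461) and 0.01 (496) for those comparisons in the same order. The members' differences, with medians of -1.29, -1.59 and -2.80, lay below the medians of the low-GC class too, and the part of base composition in them was not tested.

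The hairpins of miR-26b and miR-107 are shown because only 1 arm of each gave a signal. They are given 5′ to 3′ from RefSeq (GRCm38.p6), with the detected arm in capitals.
Mir26b: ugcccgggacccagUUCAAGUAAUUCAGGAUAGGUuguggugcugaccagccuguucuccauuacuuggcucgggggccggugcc
Mir107: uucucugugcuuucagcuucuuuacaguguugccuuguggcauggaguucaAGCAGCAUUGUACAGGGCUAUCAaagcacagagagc
Of the 6 other arms of the hairpins that yield the members, 5 were on the array: miR-26a-1-3p, miR-26a-2-3p, miR-26b-3p, miR-103-1-5p and miR-107-5p. On no array was any of these 5 well above background, with unscaled probe means between -5.12 and 1.21. miR-103-2-5p was not analysed here. The arms could therefore not be compared between groups, and their part in the exosomes is bounded only by the background.

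The miRNAs nearest to each member in profile were found from log2 scaled signals centred on their mean over the 3 arrays, by Euclidean distance, among the 561 other miRNAs detected on all 3 arrays. For miR-26a-5p the nearest were miR-23b-3p (distance 0.029), miR-27b-3p (0.072), miR-99a-5p (0.17), miR-199a-3p (0.18) and miR-199b-5p (0.19). The last 3 belong to the mesenchymal markers, and miR-23b and miR-27b are neighbours in 1 cluster. For miR-26b-5p they were miR-30b-5p (0.038), miR-140-5p (0.044), miR-196b-5p (0.082), miR-361-5p (0.11) and miR-362-3p (0.12). miR-140 is known as a cartilage miRNA, and miR-196b as one from the Hox clusters.

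For miR-103-3p the nearest were let-7f-5p (distance 0.13), miR-15a-5p (0.14), let-7a-5p (0.17), miR-27a-3p (0.18) and miR-29b-3p (0.18). For miR-107-3p they were let-7a-5p (0.081), miR-15b-5p (0.081), miR-151-5p (0.082), miR-21a-5p (0.10) and miR-10a-5p (0.11). The family partner was not the nearest miRNA for any member. miR-107-3p stood at place 9 of 561 for miR-103-3p, and miR-103-3p at place 21 for miR-107-3p. miR-26b-5p stood at place 14 for miR-26a-5p, and miR-26a-5p at place 65 for miR-26b-5p. A profile here has 3 points from 3 arrays, so nearness describes these arrays only.

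**Figure D4:**
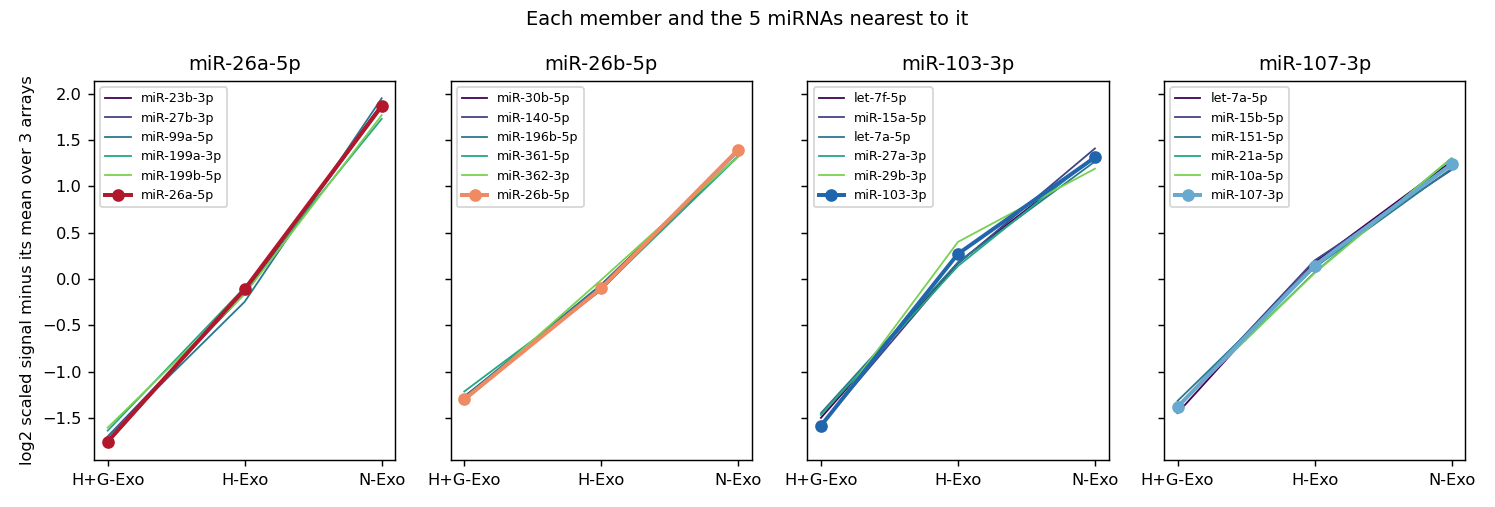
log2 scaled signal minus its mean over the 3 arrays for each member (thick line with points) and the 5 miRNAs nearest to it (thin lines), in H+G-Exo, H-Exo and N-Exo. All lines climb towards N-Exo; miR-23b-3p lies closest to miR-26a-5p, at a distance of 0.029.

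The seed of the miR-15/16 group, which restrains the cell cycle, overlaps that of miR-103 and miR-107. Of 12 mature miRNAs of the group in the RefSeq table, 10 have the seed AGCAGCA, which is bases 1 to 7 of miR-103-3p, so the seed sits 1 base further along. miR-497b has another seed, and miR-503-5p ends its seed on another base. 3 of the group are shown, with the seed in capitals, to set beside the sequences above.
miR-15a-5p: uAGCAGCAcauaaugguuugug
miR-322-5p: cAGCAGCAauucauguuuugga
miR-503-5p: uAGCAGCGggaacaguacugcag
In H-Exo against N-Exo 6 of 8 measured miRNAs of the group were called lower and 0 higher, with a median log2 difference of -1.59, beside the 10.7% of all miRNAs called lower and a median of 0.34. miR-503-5p was 5.01-fold lower (0.243 ± 0.0270 in H-Exo, against 1.22 ± 0.0671 in N-Exo) and miR-322-5p was 4.97-fold lower (0.835 ± 0.0402 in H-Exo, against 4.15 ± 0.154 in N-Exo). Of the group, 4 of 7 were called lower in H+G-Exo against H-Exo, beside 26.1% of all miRNAs, among them miR-15a-5p with 0.507 ± 0.0195 in H+G-Exo, against 1.69 ± 0.0566 in H-Exo. The count of 4 fell to 1 when scaled to the labelling spike-ins and to 0 with hybridization spike-ins or no scaling, and the median, -1.17, ranged up to -0.17 with no scaling. Against N-Exo, 6 of 7 were called lower in H+G-Exo, with a median of -2.66, beside 26.1% of all miRNAs. miR-1907 was called in no comparison, at 0.17, 0.65 and 0.81, and it has no sequence in the table used here, so its seed was not checked. Also short of the limit were miR-15b-5p (-0.98) in H-Exo against N-Exo, and miR-16-5p (-0.85) and miR-195a-5p (-0.73) in H+G-Exo against H-Exo.

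Other miRNAs reported as induced by hypoxia in earlier work were lower in part. Without the 4 members, 5 of 10 measured hypoxia signature miRNAs were called lower and 0 higher in H-Exo against N-Exo, with a median of -1.02, beside 10.7% of all miRNAs called lower. The counts were 5 of 10 for H+G-Exo against H-Exo (median -0.95) and 8 of 10 for H+G-Exo against N-Exo (median -2.02), again with 0 higher, beside 26.1% of all miRNAs in either comparison. Between H+G-Exo and H-Exo the count was 2 with the 75th percentile of all probes or the median of detected probes, 3 with quantile normalization, and 0 with either kind of spike-in or no scaling. miR-23b-3p, clustered with miR-27b and miR-24, read 1.58 ± 0.0613 in H-Exo, against 6.36 ± 0.185 in N-Exo, 4.03-fold lower. miR-30b-5p read 0.274 ± 0.0297 in H-Exo, against 0.775 ± 0.0362 in N-Exo, 2.83-fold lower. miR-210-3p, the main hypoxia-induced miRNA, had another order of the arrays than the members. It gave a scaled signal of 6.17 ± 0.243 in H+G-Exo, 13.2 ± 0.443 in H-Exo and 7.51 ± 0.339 in N-Exo, highest in H-Exo. Unscaled, it read 2894 in H+G-Exo, 3108 in H-Exo and 3133 in N-Exo. Its log2 difference in H-Exo against N-Exo was 0.82, short of the 2-fold limit, and relative to the median of all miRNAs it was 0.47. Its direction against N-Exo thus changes with the scaling.

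Among other miRNAs linked to glucose and lipid metabolism, 6 of 17 measured were called lower and 0 higher in H-Exo against N-Exo (median -0.95), beside 10.7% of all miRNAs called lower. The counts lower were 10 of 17 for H+G-Exo against H-Exo (median -1.29) and 14 of 19 for H+G-Exo against N-Exo (median -2.00), beside 26.1% of all miRNAs in either. miR-143-3p, a regulator of insulin signalling in mouse liver and a marker of smooth muscle and stroma, read 0.218 ± 0.0168 in H-Exo, against 0.999 ± 0.0532 in N-Exo, 4.58-fold lower. miR-27b-3p, which restrains fat cell formation, read 0.650 ± 0.0407 in H-Exo, against 2.62 ± 0.0802 in N-Exo, 4.03-fold lower. miR-29b-3p, of the collagen-repressing miR-29 family, read 0.996 ± 0.0257 in H+G-Exo, against 3.96 ± 0.0603 in H-Exo, 3.98-fold lower. The 1 miRNA of this list called higher was miR-370-3p in H+G-Exo against N-Exo, with a log2 difference of 1.78. Between H+G-Exo and H-Exo 2 of the 17 were called lower under either spike-in scaling and 0 with no scaling, while in H-Exo against N-Exo the count of 6 became 14 with no scaling.

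The mesenchymal markers were lower on the same arrays as the members. In H-Exo against N-Exo 10 of 14 measured markers were called lower, beside 10.7% of all miRNAs. The counts were 8 of 14 with H+G-Exo set against H-Exo and 15 of 15 with H+G-Exo set against N-Exo, and 0 were higher in each, beside 26.1% of all miRNAs called lower in either. With H+G-Exo set against H-Exo, the count of 8 fell to 0 with no scaling and with either kind of spike-in. Their summed scaled signal was 57.3 in H+G-Exo, 143.0 in H-Exo and 327.3 in N-Exo. The 8 blood cell markers summed to 0.988 in H+G-Exo, 1.52 in H-Exo and 2.54 in N-Exo. Most of that sum was miR-155-5p, with 0.808 in H+G-Exo and 2.26 in N-Exo. In H-Exo against N-Exo 3 of them were measured and 0 called, with -0.97 for miR-155-5p, 0.27 for miR-223-3p and 0.37 for miR-451a. In H+G-Exo against N-Exo 2 of 3 measured were called lower. The 5 liver and serum miRNAs summed to 1.13 in H+G-Exo, 1.17 in H-Exo and 1.26 in N-Exo, but only 1 of them, miR-423-5p, was measured in the comparisons, and miR-122-5p stayed at background on each array. The part of stromal or blood cell miRNAs in the members' differences was not tested.

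**Figure D5:**
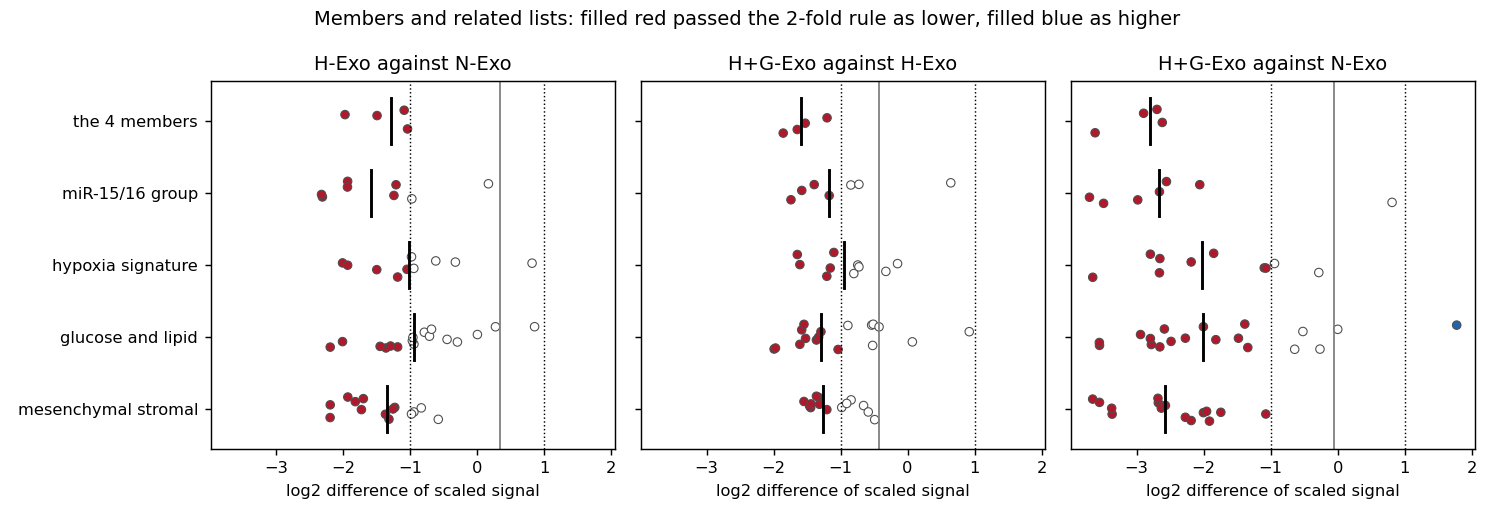
log2 difference of each measured miRNA of 5 lists in the 3 comparisons (red, called lower; blue, called higher; open, not called), with the list's median as a black bar, all miRNAs' median as a grey line and 2-fold as dotted lines. The medians of the members, -1.29, -1.59 and -2.80, and of the 4 other lists lie left of the grey line in each panel.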

How the data were processed

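RNA from exosomes of 3 groups (H+G-Exo, H-Exo and N-Exo, 1 array each, grouped by the treatment in the labels) was measured. Per the file headers and the submitters' processing notes, the authors quantified the arrays with Agilent Feature Extraction 10.7.1.1, and their deposited files give a background-subtracted intensity for each spot, not scaled between arrays. Per the labels' protocols, kits for cRNA amplification and for cDNA were used, so how the RNA was labelled for a miRNA array is uncertain. The deposited value table was taken to hold log2 values, since it followed the log2 of the summed probe signals of a miRNA (Pearson r across miRNAs 0.968 in H+G-Exo, 0.987 in H-Exo and 0.956 in N-Exo). Its column medians were -3.30, -3.00 and -3.32 in the same order, while all 3 columns had the same mean, 0.288, and the same maximum, 17.2. No source used here gives its normalization. It holds no ratios, so direction does not arise.

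From these files the following was computed in Python 3.11.15 (numpy 2.4.6, pandas 2.3.3). Control spots and spots that the software marked as outliers were left out, and 0 spots were saturated. Probe means were scaled to the 75th percentile, on their array, of probes detected everywhere, raised to a floor of 0.0653 (the lowest detected signal on the array where that is highest) and put on the log2 scale. Each miRNA was represented by its brightest probe. A call needed detection on both arrays, a 2-fold difference and 2 standard errors over spots. The number of arrays limits the precision. Alternatives were 16 other settings of scaling, background, spots, detection and probe, with normexp background from limma 3.58.1 (R 4.3.3, offset 50). The spike-in control dmr_6 was taken as the hybridization control and dmr_285 and dmr_31a as labelling controls, by name only.

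The named miRNAs were every probe of the 4 members, the other arms of their hairpins, the 5 miRNAs nearest to each member, up to 4 called members of each list with the largest difference, and miR-210-3p. miR-1907, miR-370-3p, miR-423-5p, miR-497b, miR-16-5p, miR-195a-5p and miR-223-3p were added after their values were seen. The members and lists were chosen with earlier results of these data known, and the lists overlap, so a miRNA counts under each. Sequences are from RefSeq, where 10 of 10 members and other arms and 12 of the 13 listed miRNAs of the miR-15/16 group had one, or from the array files. Hosts are the RefSeq genes that span a hairpin. Coordinates are the array files' own.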

Additional observations from a re-analysis of the deposited data

How the results depend on the processing

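In H-Exo against N-Exo miR-103-3p missed the 2-fold limit with quantile normalization (-0.94) and in the value table (-0.99), and with normexp so did miR-26b-5p (-0.68) and miR-107-3p (-0.96). The miRNAs called lower numbered 62 in the main setting, 134 with no scaling, 136 with hybridization spike-ins, 99 with labelling spike-ins and 128 with no detection filter. In H+G-Exo against H-Exo miR-26b-5p missed the limit with the 75th percentile of all probes (-0.87), the median of detected probes (-0.79), quantile normalization (-0.88), normexp (-0.41), no detection filter (-0.87), the other probe (-0.39, not detected in H+G-Exo), the software's total (-0.82) and the value table (-0.82). With no scaling miR-26a-5p was at -0.65, miR-26b-5p at -0.20, miR-103-3p at -0.86 and miR-107-3p at -0.53. Hybridization spike-ins gave -0.74, -0.30, -0.95 and -0.62 in that order, and labelling spike-ins -0.97 for miR-26a-5p, -0.53 for miR-26b-5p and -0.85 for miR-107-3p. The miRNAs called lower numbered 148, and 97 with the 75th percentile of all probes, 88 with the median, 7 with no scaling, 16 and 36 with hybridization and labelling spike-ins, and 70 with normexp. In H+G-Exo against N-Exo the other probe of miR-26b-5p gave -2.06 and is not detected in H+G-Exo, and the calls lower numbered 158, 98 with normexp and 289 with no detection filter. A scaling by 1 factor per array moves all miRNAs together by construction. The normexp setting adds an offset of 50 to every spot, which by construction shrinks log2 differences, most for dim miRNAs. The cause of the other changes was not tested.

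Gaps between members turned sign with normexp: miR-103-3p minus miR-107-3p (-0.0845), miR-26b-5p minus miR-103-3p (0.36) and miR-26b-5p minus miR-107-3p (0.28) in H-Exo against N-Exo, and miR-26b-5p minus miR-107-3p in H+G-Exo against N-Exo (1.06, and 0.0568 in the value table). Each member was lower in each comparison in all settings run, 1 choice being changed at a time. Values of miR-26b-5p in H+G-Exo lie close to background, and the normexp offset of 50 weighs more on such dim signals. No paired analysis was possible because each group was 1 array. For the same reason no replicate could be left out and slide could not be a block.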
